A study of Mus musculus with 12 samples.

Results

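The serotonin receptor genes examined here are 10 members of the mouse Htr family, Htr1a, Htr1b, Htr1f, Htr2a, Htr2c, Htr3a, Htr4, Htr5a, Htr6 and Htr7, taken by symbol from the 24421 genes listed in each count file. All 10 were found and all 10 passed the filter on low counts, along with 14564 genes in all. The samples were polyribosomal RNA, the RNA that pellets with ribosomes through a sucrose cushion, from hippocampi of C57/Bl6 mice aged 6 weeks. By their labels 6 libraries were control and 6 were fear case, with no allele or drug named for either group. Every label carries the same protocol, in which singly housed mice spent 8 min in an unfamiliar context and 7 min back at home before tissue was taken at 15 min. How the control mice were handled and whether any mouse was shocked are not in the labels, and the title speaks of a new context where the group label says fear. Nothing in the labels ties each library to its own animal, so p-values reflect only the spread among these libraries, which may be technical.

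Serotonin reaches the hippocampus along axons whose cell bodies lie in the raphe nuclei of the brainstem. The receptors of hippocampal cells are made locally, while the enzyme that starts serotonin synthesis is made elsewhere. Most receptors are G protein-coupled. The Htr1 and Htr5 groups act through Gi/o proteins, which lower cAMP and open potassium channels, the Htr2 group acts through Gq/11 and phospholipase C, and Htr4, Htr6 and Htr7 raise cAMP through Gs. Htr3a is the exception, a subunit of a cation channel opened by serotonin. In the hippocampus these receptors are known for setting the excitability of pyramidal cells and interneurons and for effects on anxiety and memory, and Htr2c is also known for its abundance in the choroid plexus, a fluid-secreting tissue in the ventricles next to the hippocampus.

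Library depth ran from 18.6 M to 44.2 M gene counts with a median of 21.6 M, and fear case 6 was the deepest. Fos and Npas4, immediate early genes of active neurons, were higher in all fear case libraries than in any control, at 12.1 to 33.7 CPM against 2.29 to 6.83 CPM for Fos and 17.5 to 28.9 CPM against 3.87 to 7.23 CPM for Npas4 (CPM is counts divided by the TMM-scaled library size and multiplied by a constant shared by all libraries). Hippocampal markers were present throughout, with the summed level of 10 dentate gyrus markers at 499 to 606 CPM in the controls and 547 to 641 CPM in the fear case libraries, and that of 10 CA1 and CA2 markers at 590 to 681 CPM and 570 to 627 CPM. Markers of raphe serotonin neurons were low, at a sum of 4.45 to 8.16 CPM and 4.12 to 6.91 CPM over 8 genes. Of these, 5 passed the filter on low counts, while the serotonin transporter gene Slc6a4 had no count in 10 of 12 libraries. Choroid plexus markers varied most: the sum of 20 genes was 833 to 2321 CPM among controls but 40.6 to 1617 CPM among fear case libraries, and the highest fear case value was that of fear case 6. In bulk tissue, fewer cells of a type and less RNA per cell cannot be told apart.

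Regions around the annotated starts of the receptor genes are shown for the 2 most abundant members and for Htr7, the member whose window holds the core of the cAMP response element, a motif bound by CREB in many genes that respond to neuronal activity. Each window runs from 250 bases before to 50 bases after a RefSeq start in GRCm38.p6. Capitals mark the CRE core TGACG and the GC box GGGCGG, on either strand.
Htr1a: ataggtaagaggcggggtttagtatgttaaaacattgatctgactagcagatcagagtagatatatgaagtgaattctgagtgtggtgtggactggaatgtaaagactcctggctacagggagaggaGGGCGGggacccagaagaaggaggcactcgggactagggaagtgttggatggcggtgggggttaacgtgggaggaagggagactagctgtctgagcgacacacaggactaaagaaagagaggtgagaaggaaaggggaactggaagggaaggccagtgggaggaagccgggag
Htr2c: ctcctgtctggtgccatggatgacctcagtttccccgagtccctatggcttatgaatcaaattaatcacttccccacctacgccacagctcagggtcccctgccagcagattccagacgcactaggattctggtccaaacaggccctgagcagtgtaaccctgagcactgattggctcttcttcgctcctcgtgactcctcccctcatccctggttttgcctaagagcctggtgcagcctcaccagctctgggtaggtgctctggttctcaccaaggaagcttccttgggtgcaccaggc
Htr7: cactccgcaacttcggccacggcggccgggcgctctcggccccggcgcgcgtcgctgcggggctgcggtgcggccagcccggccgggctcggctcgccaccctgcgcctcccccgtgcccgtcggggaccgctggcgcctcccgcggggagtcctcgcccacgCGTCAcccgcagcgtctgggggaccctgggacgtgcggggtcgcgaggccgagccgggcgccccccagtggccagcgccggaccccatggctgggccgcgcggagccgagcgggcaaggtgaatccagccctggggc
The Htr1a window lies at chr13:105443443-105443742 on the plus strand, that of Htr2c at chrX:146962263-146962562 on the plus strand and that of Htr7 at chr19:36057311-36057610 on the minus strand. RefSeq windows were matched for 8 of the 10 members, 9 windows in all, since Htr6 has a pair. The full palindrome TGACGTCA was in 0 of the 9 windows and in 1.79% of the 32851 windows of all genes. The core was in 1 of the 9, against 20.8% of all windows, and the GC box in 4 of the 9, against 35.7%. The GC content of the Htr7 window was 81.0%, that of the Htr1a window 52.3% and that of the Htr2c window 56.3%, where the median of all windows was 52.7%. A matching string is a description of these letters and not a bound site.

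The receptors differed widely in abundance. Per kb of merged exon length, Htr1a stood highest at 6.35 ± 0.831 CPM per kb (mean ± SD, n = 12 libraries), above Htr2c in all 12 libraries. Htr2c followed at 3.28 ± 0.742, Htr7 at 2.90 ± 0.414, Htr5a at 2.44 ± 0.317, Htr3a at 2.27 ± 0.353 and Htr4 at 2.01 ± 0.430 CPM per kb. By merged exon length these 5 neighbours were not cleanly ordered. Htr2c exceeded Htr7 in 7 of 12 libraries, Htr7 exceeded Htr5a in 10, Htr5a exceeded Htr3a in 8 and Htr3a exceeded Htr4 in 9. A step down followed, since Htr4 exceeded Htr1f in all 12 libraries. Htr1f averaged 1.33 ± 0.341, Htr2a 1.02 ± 0.0973, Htr1b 0.627 ± 0.162 and Htr6 0.560 ± 0.157 CPM per kb. Htr1f exceeded Htr2a in 11 libraries, Htr2a exceeded Htr1b in 12, and Htr1b exceeded Htr6 in 9.

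**Figure D1:**
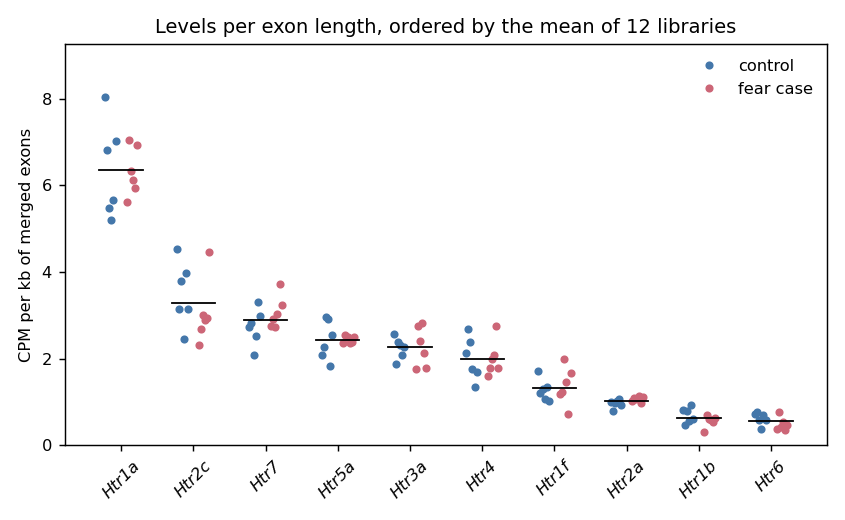
CPM per kb of merged exons for each receptor gene, one point per library (blue control, red fear case, 6 libraries each), with a bar at the mean of all 12. Htr1a lies above every other member at a mean of 6.35, and Htr1b and Htr6 lie lowest at 0.627 and 0.560.

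The spread between libraries was set beside the counting error of each member, with no test. Over 12 libraries the coefficient of variation was 22.6% for Htr2c and 21.4% for Htr4, where counting error alone gives 3.74% and 6.71%. It was 13.1% for Htr1a (counting error 3.91%), 13.0% for Htr5a (5.77%), 14.3% for Htr7 (6.62%) and 15.6% for Htr3a (9.69%). The scarcer Htr1b, Htr1f and Htr6 varied by 25.8%, 25.6% and 28.1%, with counting errors of 12.1%, 11.2% and 18.4%. The ratio of the spread to the counting error was thus highest for Htr2c, followed by Htr1a and Htr4, and lowest for Htr2a.

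The distance between Htr1a and Htr2c depended on the length used. The merged exons of Htr2c cover 9328 bases, while its longest annotated transcript has 4883. Per kb of longest transcript Htr2c came to 6.27 ± 1.42 CPM per kb against 6.35 ± 0.831 for Htr1a, and Htr1a was the higher in 8 of 12 libraries. The order of all 10 genes was the same with that length, but Htr2c then stood clear of Htr7. The lowest Htr2c library was at 4.44 CPM per kb, above the highest Htr7 library at 4.02. The genes were then grouped by coupling, again per kb of merged exons. The 4 Gi/o genes held 47.1 ± 1.90% of the summed level of controls and 47.3 ± 2.65% of that of fear case (n = 6 per group). The Gq/11 pair held 19.5 ± 2.36% and 18.1 ± 2.31%, the 3 Gs genes 23.5 ± 2.15% and 24.6 ± 3.01%, and the channel subunit Htr3a 9.88 ± 1.08% and 10.0459 ± 1.84%. The make-up of the receptor set thus differed between groups by less than its spread within either group. The order of the Gq/11 and Gs classes depended on the length used, and only merged exons put the Gs genes higher. Per kb of longest transcript the Gq/11 pair stood higher, with 12-library means of 6.27 for Htr2c and 1.02 for Htr2a. The Gs genes then had means of 3.13 for Htr7, 2.11 for Htr4 and 0.560 for Htr6. In CPM without length scaling the Gq/11 pair also stood above the Gs genes, at 38.2 ± 7.07 against 20.6 ± 2.23 CPM in controls. In fear case the values were 34.5 ± 7.00 against 21.4 ± 3.02 CPM.

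Fear case was set against control to ask whether receptor transcripts on hippocampal polyribosomes differ at the stated collection time. No receptor gene passed: 0 of the 10 were called by edgeR's quasi-likelihood test at an adjusted p under 0.05, where 0.103% of the 14564 tested genes were called. None had an unadjusted p under 0.05 either, against 7.14% of all genes, and DESeq2 and limma-voom also called 0. The groups overlapped for all 10, whereas 0.597% of tested genes showed no overlap. Log2 fold changes ran from -0.35 for Htr6 to 0.16 for Htr7 with a median of 0.0047, and 6 of 10 were positive. Over all tested genes the median was -0.0046 and 48.6% were positive. Summed over the 10 genes, the level was 96.1 to 130.2 CPM in controls, against 91.6 to 124.4 CPM in fear case.

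**Figure D2:**
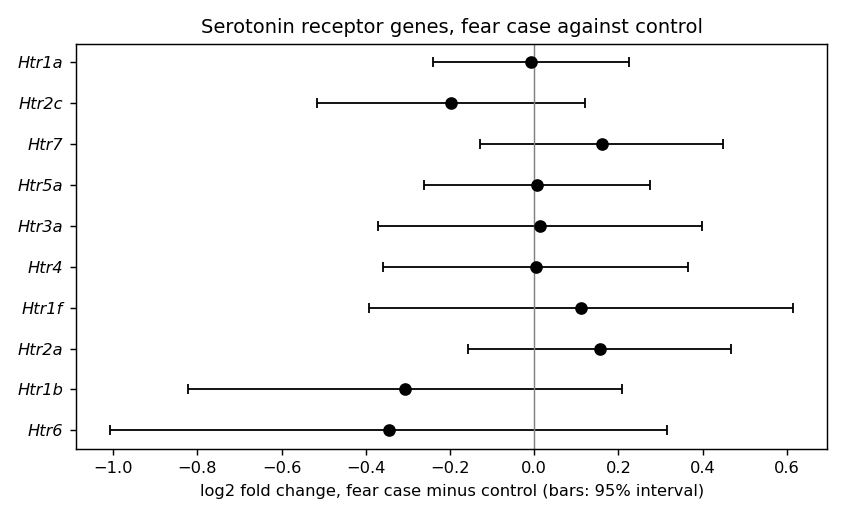
Log2 fold change of each receptor gene, fear case minus control, from the quasi-likelihood fit, with bars for the 95% interval, ordered from top to bottom by level per kb. Every interval spans 0, and they are narrowest for Htr1a (-0.24 to 0.23) and widest for Htr6 (-1.01 to 0.32).

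Among the Gi/o-coupled receptors, Htr1a, the main inhibitory serotonin receptor of hippocampal principal neurons, had a lowest, median and highest level of 23.4, 28.0 and 36.03 CPM in controls. In fear case the same 3 values were 25.2, 27.9 and 31.6 CPM, so the fear case libraries lay inside the control range. Its log2 fold change was -0.0068 (SE 0.10, adjusted p = 0.995, edgeR), and the 95% interval from -0.24 to 0.23 spans folds of 0.847 to 1.17. With 465 to 1245 counts per library, this was the tightest estimate of the family. On chromosome 13, the single exon of Htr1a spans 105443639 to 105448122 (plus strand).

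Htr5a, another Gi/o-coupled receptor, ran from 9.80 over a median of 13.005 to 15.99 CPM in controls, against from 12.6 over 13.2 to 13.7 CPM in fear case. The group centres were almost equal, 0.0061 apart on the log2 scale (95% interval -0.26 to 0.27, SE 0.12, adjusted p = 0.996). Its 2 exons span 27842149 to 27855088 of chromosome 5 (plus strand). The libraries of the groups were not equally spread, at an SD of 2.48 CPM in controls, against 0.475 CPM in fear case.

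Htr1b, the receptor of axon terminals that restrains transmitter release, ran from 2.23 over 3.30 to 4.36 CPM in controls, against from 1.49 over 2.81 to 3.29 CPM in fear case. Only fear case 1, at 1.49 CPM, lay below all controls. Its log2 fold change of -0.31 (SE 0.23, adjusted p = 0.813) had an interval from -0.82 to 0.21. It spans 81628291 to 81633828 of chromosome 9 (minus strand). Of its merged exons, 852 bases overlap exons of D430036J16Rik on the opposite strand, and the sources used here do not say if reads were counted by strand, so its level is less certain. Htr1f, which also couples to Gi/o, ran from 2.67 over 3.25 to 4.43 CPM in controls, against from 1.89 over 3.49 to 5.13 CPM in fear case. The fear case values of Htr1f reached beyond the controls at both ends, and its log2 fold change was 0.11 (SE 0.23, adjusted p = 0.948, 95% interval -0.39 to 0.62). Htr1f spans 64924729 to 65105854 of chromosome 16 (minus strand).

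Of the Gq/11-coupled receptors, Htr2a, the target of classical psychedelics, ran from 4.41 over 5.58 to 5.98 CPM in controls, against from 5.54 over 6.12 to 6.41 CPM in fear case. In 4 of the 6 fear case libraries it lay above every control, while fear case 1 and fear case 5 lay inside the control range. The log2 fold change was 0.16 (SE 0.14, adjusted p = 0.848, 95% interval -0.16 to 0.47). The 3 exons of Htr2a span 74640840 to 74709494 of chromosome 14 (plus strand). Htr2a was the steadiest member, with a coefficient of variation of 9.50% over 12 libraries where counting error alone gives 8.68% at its mean count.

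Htr2c ran from 22.9 over 32.4 to 42.3 CPM in controls, against from 21.7 over 27.3 to 41.6 CPM in fear case. Fear case 1 to 5 stood at 21.7, 24.98, 28.1, 27.07 and 27.4 CPM and fear case 6 at 41.6 CPM, apart from the other 5 and level with the highest control. The log2 fold change was -0.20 (SE 0.14, adjusted p = 0.798, 95% interval -0.52 to 0.12). Without fear case 6 it was -0.34 (adjusted p = 0.364, unadjusted p = 0.0103), which did not pass. Its 7 annotated transcripts span 146962513 to 147197277 of chromosome X (plus strand).

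**Figure D3:**
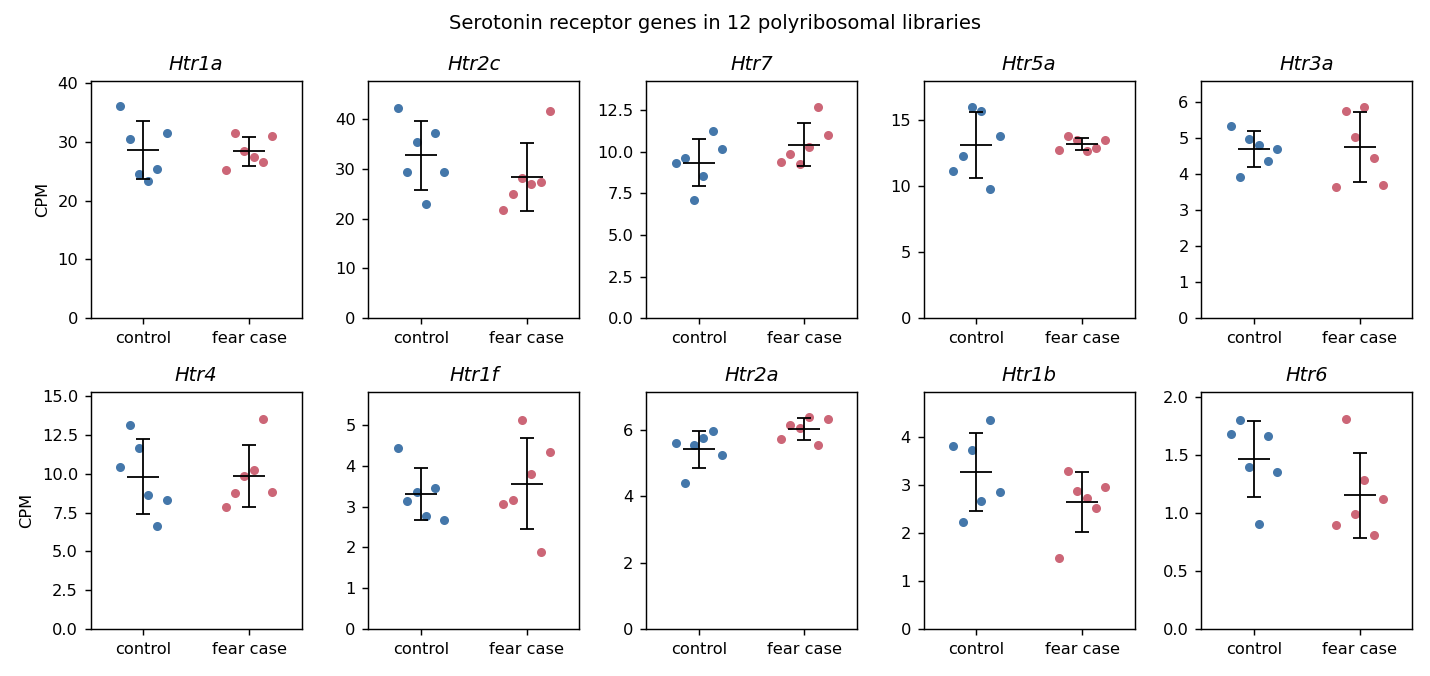
Level of each receptor gene in CPM in 6 control (blue) and 6 fear case (red) libraries, points in replicate order from left to right, with a black bar at the group mean and its SD. The groups overlap in every panel, and in the Htr2c panel fear case 6 sits at 41.6 CPM above the other 5 fear case libraries.

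Of the Gs-coupled receptors, Htr4, known for promoting memory in rodents, ran from 6.65 over 9.55 to 13.2 CPM in controls, against from 7.87 over 9.33 to 13.6 CPM in fear case. The ranges nearly coincided, and the log2 fold change was 0.0033 (SE 0.16, adjusted p = 0.996, 95% interval -0.36 to 0.37). Htr7, a receptor that also takes part in circadian phase shifts, ran from 7.09 over 9.47 to 11.2 CPM in controls, against from 9.26 over 10.1 to 12.7 CPM in fear case. Its lowest fear case value lay near the control median, and its log2 fold change was 0.16 (SE 0.13, adjusted p = 0.824, 95% interval -0.13 to 0.45). It spans 35958734 to 36057507 of chromosome 19 (minus strand). Htr6, a receptor found in neuronal primary cilia, was the scarcest member, with 18 to 45 counts per library. It ran from 0.905 over 1.53 to 1.81 CPM in controls, against from 0.811 over 1.06 to 1.81 CPM in fear case. Its log2 fold change of -0.35 (SE 0.30, adjusted p = 0.836) carried the widest interval, from -1.01 to 0.32. That interval spans folds of 0.497 to 1.24, which include no change. Htr6 spans 139061108 to 139075570 of chromosome 4 (minus strand), and Htr4 lies on chromosome 18.

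Htr3a, the channel subunit carried by a class of interneurons, ran from 3.93 over 4.77 to 5.35 CPM in controls, against from 3.66 over 4.74 to 5.88 CPM in fear case. Its 9 merged exons span 48899213 to 48911099 of chromosome 9 (minus strand). Fear case values fell on both sides of the control range, 2 above and 2 below. The log2 fold change was 0.013 (SE 0.17, adjusted p = 0.994, 95% interval -0.37 to 0.40). Interneuron markers, 17 genes including the GABA-synthesising enzyme gene Gad1, summed to 1024 to 1229 CPM in controls, against 1081 to 1177 CPM in fear case, and 0 of the 17 were called.

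The choroid plexus score was lower on average in fear case. In the fit of all 12 libraries 0 of its 20 genes were called (17 at an unadjusted p under 0.05, median log2 fold change -1.47). Without fear case 6, 17 were called, where 128 of the 14665 genes then tested were called. This score, the mean log2 CPM of the 20 choroid plexus markers, was 3.48 ± 0.386 in controls and 1.26 ± 1.74 in fear case. The exact two-sided permutation p was 0.0130 over 924 relabellings (smallest possible p = 0.00216), or 0.0625 with libraries paired by number. The marker list was written with earlier results of these data known, so these p-values are not independent evidence of a difference. Fear case 1 to 5 scored -0.89 to 2.27 and fear case 6 scored 3.78, inside the control range of 3.06 to 4.07. Ttr, the choroid plexus gene for the thyroid hormone carrier transthyretin, was 641 to 1978 CPM in controls, 7.41 CPM in fear case 2, 7.96 CPM in fear case 4 and 1319 CPM in fear case 6. Markers of the motile cilia of ependyma, the lining of the ventricles, had a summed level of 53.8 to 70.4 CPM in controls against 31.7 to 46.2 CPM in fear case, with no overlap. Of 8 tested, 6 had an unadjusted p under 0.05 and 1 was called, the cilium gene Tekt1 at -1.02 on the log2 scale (SE 0.20, adjusted p = 0.0483, edgeR), with a median of -0.74 over the 8. Without fear case 6 there were 4 called, in the fit that called 128 of 14665 genes. The part of these cilia markers in the receptor values was not tested.

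With the 12 libraries pooled, Htr2c followed this score more closely in rank than the other members did, without passing. Over the 12 libraries Pearson's r between its log2 CPM and the score was 0.57 (permutation p = 0.0455, adjusted over the 10 members p = 0.332) and Spearman's rho was 0.74 (permutation p = 0.00806, adjusted p = 0.0806). Within controls r was 0.82 (n = 6, exact permutation p = 0.0361, adjusted p = 0.181), within fear case 0.54 (n = 6, exact permutation p = 0.264, adjusted p = 0.880). Htr2c was not the closest member within either group. Within controls r was larger for Htr1f, at 0.93 (exact permutation p = 0.0167, adjusted p = 0.167). Within fear case it was larger in size for Htr3a, at -0.94. Without fear case 2 and fear case 4, the libraries farthest from the median score, r was 0.59 (permutation p = 0.0711). Since 5 fear case libraries score apart from the other 7, the pooled values also carry the difference between the groups. In a fit of all genes with group and score together, the slope of Htr2c was 0.13 on the log2 scale per unit of score (SE 0.052, unadjusted p = 0.0177, adjusted p = 0.661, edgeR), which did not pass. The group difference of Htr2c in that fit was 0.09 (adjusted p = 0.932, edgeR) in place of -0.20 (adjusted p = 0.798), and neither passed. The level of Htr2c where the score was lowest was 24.98 CPM in fear case 2 and 27.07 CPM in fear case 4, below 5 of the 6 controls (29.4 to 42.3 CPM) and above control 4 (22.9 CPM, score 3.26). Yet the lowest Htr2c level of all 12 libraries was 21.7 CPM in fear case 1. Its score of 2.27 was the highest of fear case 1 to 5. The relation within fear case without fear case 6 was not tested.

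Htr3a gave the opposite sign in fear case, with r = -0.94 against the score within that group (n = 6, exact permutation p = 0.0111, adjusted p = 0.111) but 0.63 within controls (exact permutation p = 0.169). Over 12 libraries its r was -0.54 (permutation p = 0.0664, adjusted p = 0.332) and rho -0.34 (permutation p = 0.272), and without fear case 2 and fear case 4 r was -0.014, so the pooled relation rests on those libraries. Its values in fear case 1 and fear case 6, where the score was 2.27 and 3.78, were 3.66 and 3.71 CPM, and in fear case 2 and fear case 4 they were 5.76 and 5.88 CPM. For the other 8 members r over 12 libraries lay between -0.42 for Htr2a and 0.18 for Htr1b, and no member passed after adjustment over the 10.

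**Figure D4:**
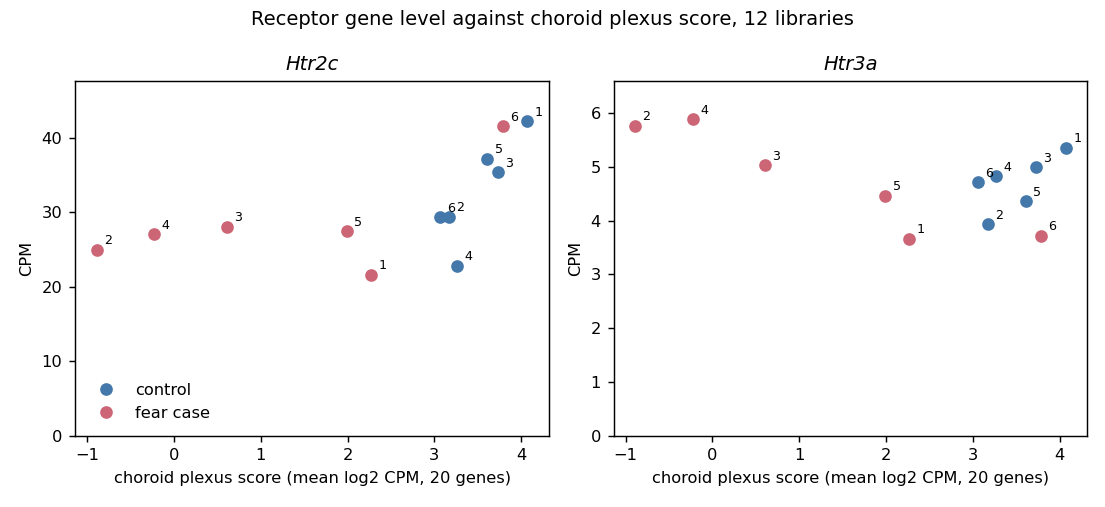
CPM of Htr2c (left) and Htr3a (right) against the choroid plexus score of each library, the mean log2 CPM of 20 marker genes, with points numbered by replicate (blue control, red fear case). For Htr2c, fear case 6 lies with the controls at a score of 3.78 and 41.6 CPM, and for Htr3a the fear case points fall from 5.88 CPM in fear case 4 to 3.71 CPM in fear case 6.

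The remaining receptor genes of the family were close to the limit of detection except Htr5b. Htr5b, a Gi/o-type receptor gene whose human counterpart is a pseudogene, stood at 2.34 to 4.43 CPM in controls, against 1.80 to 3.04 CPM in fear case, or -0.36 on the log2 scale with an SE of 0.22 (adjusted p = 0.765). Htr1d had 1 to 14 counts per library, Htr3b had 0 to 15 and Htr2b had 0 in 7 of 12 libraries and 14 in control 2. These 3 genes did not pass the filter, and a count of 0 allows up to 0.0748 to 0.159 CPM depending on the library, counting error only.

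Genes that make, move and break down serotonin held no called member among 10 tested of 14 listed. Their median log2 fold change was -0.22, and 8 of 10 were negative. Slc29a4, a low-affinity monoamine transporter, was 18.01 to 33.3 CPM in controls, against 13.002 to 21.1 CPM in fear case, giving -0.43 on the log2 scale (SE 0.13, unadjusted p = 0.00447, adjusted p = 0.372). With the score in the fit it was -0.21 (unadjusted p = 0.244, adjusted p = 0.812). Maob, a monoamine-degrading enzyme of mitochondria, was 9.74 to 12.4 CPM in controls, 6.19 to 9.75 CPM in fear case 1 to 5 and 12.8 CPM in fear case 6. The log2 fold change of Maob was -0.39 (SE 0.15, adjusted p = 0.590), -0.55 without fear case 6 (adjusted p = 0.0672) and -0.0015 once the score was added to the fit (adjusted p = 0.999). Tph2, the neuronal enzyme that starts serotonin synthesis, had 10 to 30 counts per library.

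Downstream of the receptors, no gene of the Gi/o and potassium channel list (24 tested), the Gq/11 and phospholipase C list (17 tested), the Gs and cAMP list (22 tested) or the list of receptor partners and regulators (27 tested) was called. Their median log2 fold changes were -0.0040, 0.047, 0.019 and -0.024. Dgkb, a diacylglycerol kinase that ends a signal of the Gq/11 route, came nearest in these lists, at 163 to 197 CPM in controls, against 182 to 226 CPM in fear case, giving 0.26 on the log2 scale (SE 0.067, adjusted p = 0.187). In the Gi/o list the lowest p was that of Rgs4, which speeds the shut-off of G proteins (0.15, SE 0.078, adjusted p = 0.735). In the Gs list it was that of Gnas, the stimulatory G protein itself (-0.11, SE 0.061, adjusted p = 0.755). Among partners, Yif1b, which helps carry the Htr1a protein into dendrites, stood at a log2 value of -0.39 (SE 0.14, adjusted p = 0.520), and Adarb2, an RNA-binding relative of the editing enzymes, at 0.22 (SE 0.079, adjusted p = 0.520). Receptors for the other monoamines and for acetylcholine were also not called, 0 of 17 tested, with a median of -0.055 and 14 negative, and the lowest p was that of the adrenergic receptor gene Adra1a (-0.41, SE 0.18, adjusted p = 0.618). Next in order of p came the G protein subunit genes Gng2 in the Gi/o list (0.093, adjusted p = 0.782) and Gna11 in the Gq/11 list (-0.12, adjusted p = 0.743). In the Gs list it was the kinase gene Prkacb (0.098, adjusted p = 0.777), and among the other receptors Adra1b (-0.47, adjusted p = 0.793). With the choroid plexus score in the fit, the log2 fold change was 0.38 for Dgkb (adjusted p = 0.331, edgeR), -0.45 for Yif1b, -0.43 for Adra1a and -0.70 for Adra1b. In that fit it was 0.17 for Rgs4, 0.062 for Gng2, -0.13 for Gna11, -0.15 for Gnas, 0.10 for Prkacb and 0.15 for Adarb2.

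For members with a mean of at least 5 CPM, the gene whose log2 CPM ran most nearly in parallel over the 12 libraries was picked from 14563 others. Htr2a ran most nearly with Tomm5 (Pearson's r = 0.96), Htr2c with Cyp2j6 (0.91), Htr4 with Ica1 (0.90), Htr5a with Ispd (0.89) and Htr7 with 5930430L01Rik (0.92). These r values are the highest of many over few libraries, which share depth and tissue make-up, and are given as a description only.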

How the data were processed

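The 12 libraries are polyribosomal RNA, 6 control and 6 fear case by their titles. Per the labels' protocols, cleared homogenate went through a cushion of 1 molar sucrose in a 4 h spin, and the pellet was sequenced as 40 bp read pairs (SMARTer total RNA-seq kit). The deposited files hold raw whole-number counts per gene symbol, made with cutadapt, TopHat, Bowtie and HTSeq on mm10 per the submitters' processing notes. Neither tool versions nor use of strand are stated in the sources used here. Reads on no gene were 25.5% to 33.3% of assigned, unassigned and ambiguous counts and stayed out of library sizes.

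The test was run with edgeR 4.0.16 in R 4.3.3: filterByExpr (minimum count 10, minimum total 15), TMM scaling, and a quasi-likelihood test of fear case against control without covariates, with Benjamini-Hochberg adjustment over 14564 genes and calls under 0.05. Log2 CPM used a prior count of 2. SE is the log2 fold change over the square root of F, and 95% intervals use 10 residual degrees of freedom. At 18.8 to 40.1 counts per CPM, counting error alone is 3.74% (Htr2c) to 18.4% (Htr6) of a member's level. Exon lengths and positions are from GENCODE vM21 (GRCm38, the assembly of mm10), promoters from RefSeq. Alternatives used DESeq2 1.42.0 and limma 3.58.1; correlations used 100000 permutations, or all orders within groups.

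The members and lists were chosen with earlier results of these data known. The rule named the 10 members, the called genes and the 2 lowest unadjusted p of each pathway list, the top 2 genes of each marker list and the 3 nearest genes by Pearson's r, of which some markers and all but the nearest gene are left out for space, and the check genes Fos, Npas4 and Arc (Arc also left out). One nearest gene is not reported here. Tph2, Slc6a4, Htr1d, Htr2b and Htr3b were added for their role.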

Additional observations from a re-analysis of the deposited data

Results flagged for a closer look

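Htr2c in fear case 6 stood at 41.6 CPM, far above the next fear case library at 28.1 CPM, a gap that passed Dixon's 95% value for 6 samples. It was the only such value among 22 groups examined (10 receptor genes and the choroid plexus score in each group), where chance alone gives about 1 in 20. The same library had the highest choroid plexus score of its group (3.78), 12.5% of its gene counts on the ribosomal RNA precursor Rn45s against 4.55% to 7.98% in the others, and the largest depth. The relation of Htr2c to the score is given above, and the part of depth and Rn45s in its value was not tested.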

How the results depend on the processing

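No receptor gene was called under any of the 20 alternatives, and their lowest adjusted p was 0.364 (Htr2c without fear case 6). Of 200 member values under alternatives, 169 kept their sign and 31 changed it. With the choroid plexus covariate the log2 fold change was 0.090 for Htr2c, -0.32 for Htr3a (adjusted p = 0.774) and -0.022 for Htr5a, and that of Htr6 went from -0.35 to -0.66; with limma-voom it was 0.016 for Htr1a and -0.037 for Htr3a, with upper-quartile scaling -0.0010 for Htr4, and with the replicate block 0.0034 for Htr1a and -0.0016 for Htr3a. With each library left out in turn it ranged from -0.057 to 0.074 for Htr1a, -0.015 to 0.24 for Htr1f, -0.056 to 0.077 for Htr3a, -0.11 to 0.10 for Htr4, -0.066 to 0.072 for Htr5a, -0.40 to -0.19 for Htr1b, -0.52 to -0.26 for Htr6, 0.092 to 0.22 for Htr7 and -0.34 (without fear case 6) to -0.11 (without control 1) for Htr2c. Over all genes 15 were called, but 59 by DESeq2, 37 without a filter on low counts, 5 with the choroid plexus covariate, and 9 (without control 3 or fear case 2) to 128 (without fear case 6) with a library left out. The choroid plexus score difference of -2.23 ranged from -2.73 to -1.80 with a library left out. The causes were not tested.

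Same-numbered libraries did not deviate together (correlations from -0.17 to 0.047, with 2 of 6 numbers matching best). Low correlations cannot exclude a pairing, so whether the numbers pair the samples stays unknown. With the replicate block 18 genes and 0 receptors were called, and the paired exact permutation p of the score difference of -2.23 was 0.0625. The relation to the score changed sign for Htr1a (r = 0.20 within control and 0.20 without fear case 2 and 4), Htr1f (0.020 without those libraries, 0.93 within control), Htr2a (0.49), Htr3a (0.63) and Htr4 (0.070) within control, and Htr1b (-0.37), Htr6 (-0.64) and Htr7 (0.37) within fear case. Ordering by CPM without length moved the rank of 8 members. Counting error as a share of the level was highest for Htr6, Htr1b and Htr1f, whose SE were 0.23 to 0.30.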

Other observations

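The spread of Htr5a differed more between groups than that of most genes. Its control libraries stood at 11.2, 12.3, 15.99, 15.7, 9.80 and 13.7 CPM and its fear case libraries at 12.7, 13.7, 13.5, 12.6, 12.9 and 13.5 CPM. The control SD was 5.22 times the fear case SD, a ratio reached by 31 of 14564 tested genes (0.213%), whose median ratio was 1.01. The fear case SD of 0.475 CPM at a mean of 13.2 CPM is smaller than the 5.77% that counting error alone gives. The control SD of 2.48 CPM at a mean of 13.1 CPM is larger than that counting error, so both groups enter the ratio. The gene was singled out after its values were seen, and the ratio carries no test.

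Counts of some scarce genes were concentrated in few libraries. Htr2b had 14 counts in control 2 and 6 in control 4 but 0 or 1 in the other 10 libraries, Htr3b had 15 counts in fear case 4 and 7 in fear case 5 but at most 4 elsewhere, and the raphe marker Fev had 12 counts in control 6 and at most 1 elsewhere. Htr1d, in contrast, was counted in all 12 libraries, at 1 to 14. Exons of Htr2b overlap exons of Psmd1 on the opposite strand. Counts without molecular identifiers are not independent molecules, so these values do not show how many transcripts were present.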
